A study of Mus musculus with 30 samples.

Results

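Serpina1a, Serpina1b, Serpina1c, Serpina1d and Serpina1e are the mouse copies of the gene for alpha-1-antitrypsin, and this account follows their signal in the brains of mice with and without B cells. The members were the 5 listed Serpina1 symbols, and a probe belonged to one of them when its transcript identifier on the array matched that symbol. They were chosen by their higher signal in the brains of B-cell-deficient mice, so the brain values below are a description and were not tested. Of the 5 genes, 4 had a probe, with 7 probes in all among the 55681 probes of the array, while Serpina1b was matched by none and was not analysed here. RNA came from 15 perfused mice, each of which gave 1 hippocampus and 1 brain without the hippocampus, hybridised singly to 30 Agilent 1-colour arrays. Equal numbers in the sample titles were taken to mean the same mouse. The labels gave all mice the strain C57BL/6j and an age of 15 to 20 months. There were 5 3xTgAD mice (2 females and 3 males), 5 JHT_3xTgAD mice (2 females and 3 males), 3 WT females and 2 JHT females. 3xTgAD mice carry human APP with the Swedish mutation and human tau P301L as transgenes under the Thy1 promoter, which is active mainly in neurons. JHT mice lack the joining segments of the immunoglobulin heavy chain locus and so have no functional B cells. JHT_3xTgAD mice carry both sets of alleles, and each fitted comparison with WT or JHT mice rests on females. Group means and ranges, and the sets of all B-cell-deficient and all B-cell-sufficient mice, take both sexes together where a genotype has them.

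Alpha-1-antitrypsin is a secreted serine protease inhibitor (serpin) that traps neutrophil elastase and related enzymes of inflammation. It is made mainly by hepatocytes and more weakly by other epithelia and by myeloid cells, and its transcription follows liver-enriched transcription factors and, in inflammation, cytokines of the interleukin-6 family. In humans it is encoded by 1 gene, whereas mice carry a cluster of near-identical copies, some of which differ in the loop that meets the protease. Because the copies are so alike, probes for one may also bind the others.

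The stretches upstream of the annotated starts show how alike the copies are. RefSeq (GRCm38.p6) placed all 5 starts on the minus strand of chromosome 12, and all 5 promoters were matched by symbol. A run of 55 bases was identical in the 5 genes, and 5 of the 32851 mouse promoters of the same length held it, all of them Serpina1 genes. Each sequence below is read 5′ to 3′ on the minus strand, begins 30 bases before that run and stops at most 30 bases after it or at the annotated start, and capitals mark 2 motifs, TGTTTGC (the core bound by forkhead box A factors) and GTTAAT (a motif common in promoters of liver genes).

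Serpina1a, chr12:103863620-103863709: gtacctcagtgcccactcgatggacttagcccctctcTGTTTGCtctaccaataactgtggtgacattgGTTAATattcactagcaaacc
Serpina1b, chr12:103738190-103738284: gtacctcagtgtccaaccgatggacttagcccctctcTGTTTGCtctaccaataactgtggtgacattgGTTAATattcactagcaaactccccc
Serpina1c, chr12:103904951-103905046: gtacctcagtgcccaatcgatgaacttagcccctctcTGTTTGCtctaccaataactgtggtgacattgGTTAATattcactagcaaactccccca
Serpina1d, chr12:103773634-103773718: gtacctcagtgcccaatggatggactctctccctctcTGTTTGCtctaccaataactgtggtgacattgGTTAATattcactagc
Serpina1e, chr12:103956930-103957044: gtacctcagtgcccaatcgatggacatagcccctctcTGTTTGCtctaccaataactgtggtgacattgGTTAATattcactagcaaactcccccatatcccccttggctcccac

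Over the bases shared by a pair of these sequences, identity ran from 91.8% (Serpina1b and Serpina1d) to 97.9% (Serpina1c and Serpina1e). These shares include the 55 bases that were chosen for being identical, so the choice of stretch fixes most of them. All differing bases lie outside that run. Serpina1d stood farthest from the others, with 6 or 7 differing bases of 85 in each pair. GTTAAT lay 16 to 27 bases before the start in Serpina1a, Serpina1b, Serpina1c and Serpina1d and 78 bases before it in Serpina1e, whose annotated start lies farther downstream. Read on both strands over the 250 bases before the start, GTTAAT occurred in 6.43% and TGTTTGC in 4.3% of all mouse promoters. The palindrome TTCNNNGAA bound by STAT factors occurred in 7.02% of promoters, and these letters are in none of the 5 Serpina1 stretches of 250 bases. The 2 marked motifs do not overlap, and a match describes the letters only.

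Before any comparison, 4 hippocampal arrays stood apart. The mean log2 signal of 8 choroid plexus markers (Ttr, Kl, Folr1, Clic6, Kcne2, Kcnj13, Otx2 and Aqp1) was 12.66 to 13.62 on the arrays of mouse 4 (3xTgAD), mouse 7 (JHT_3xTgAD) and both JHT mice, 13 and 14. It was 6.39 to 9.40 on the other 11 hippocampal arrays and 10.74 to 11.85 on all brain arrays. As a check of the labels, Thy1, the source of the transgene promoter, was at 17.33 or above in every brain and 17.95 or above in every hippocampus of mice with the transgenes, and at 17.11 or below in the other mice. No probe could be tied to the deleted Igh segments. Of 7 B cell markers, 2 were well above background on at least 15 of 30 arrays, 4 on 1 to 14 and Cd79a on none, and the mean of the list was 3.98 to 5.13 in the hippocampus of B-cell-sufficient mice and 4.09 to 4.88 in that of B-cell-deficient mice. All values are log2 processed signal after quantile normalization, and "well above background" is the scanner software's own call. Signal in whole tissue cannot tell more cells of a type from more RNA per cell.

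In the brain, all 4 measured copies were higher in B-cell-deficient mice. Serpina1a was at 6.03, 6.19, 6.44, 5.68 and 6.15 in the 5 3xTgAD brains (mice 1 to 5). In JHT_3xTgAD brains it was at 8.05 and 8.31 in the females (mice 6 and 7) and at 9.51, 9.49 and 8.96 in the males (mice 0, 8 and 9). WT brains were at 6.74, 6.30 and 6.62 (mice 10 to 12), and JHT brains at 9.74 and 9.69. Every B-cell-deficient brain thus lay above every B-cell-sufficient one, with a gap from 6.74 to 8.05. The same separation held for Serpina1c (6.78 against 8.03), Serpina1d (4.80 against 5.37) and Serpina1e (6.54 against 7.66), that is for 4 of 4 measured members, against 0.0654% of all 36717 genes and transcripts. Taken by comparison, 4 of 4 lay wholly higher in JHT_3xTgAD than in 3xTgAD (2.42% of all genes) and 4 of 4 in JHT than in WT (10.4%). These contrasts chose the members, so nothing is read from those counts.

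Between genotypes the brain differences were large and alike in Serpina1a, Serpina1c and Serpina1e. In the mean of the difference in females and in males, JHT_3xTgAD exceeded 3xTgAD by 2.65 for Serpina1a, 2.64 for Serpina1c and 2.51 for Serpina1e on the log2 scale, that is 5.69- to 6.28-fold. JHT exceeded WT by 2.96 to 3.17 (7.76- to 8.98-fold). Serpina1d was dim, being well above background in 5 of 5 JHT_3xTgAD and 0 of 5 3xTgAD brains, so that its difference is given only as at least 4.07-fold. The size of these differences depended on the background correction, the median over the 4 members being 2.65 as processed here and 1.68 with normexp correction of the median signals. In 3xTgAD minus WT females the differences were -0.61 to -0.41 for the other 3 genes. The 3xTgAD and WT brains lay on different slides, so that genotype and slide cannot be told apart there.

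**Figure D1:**
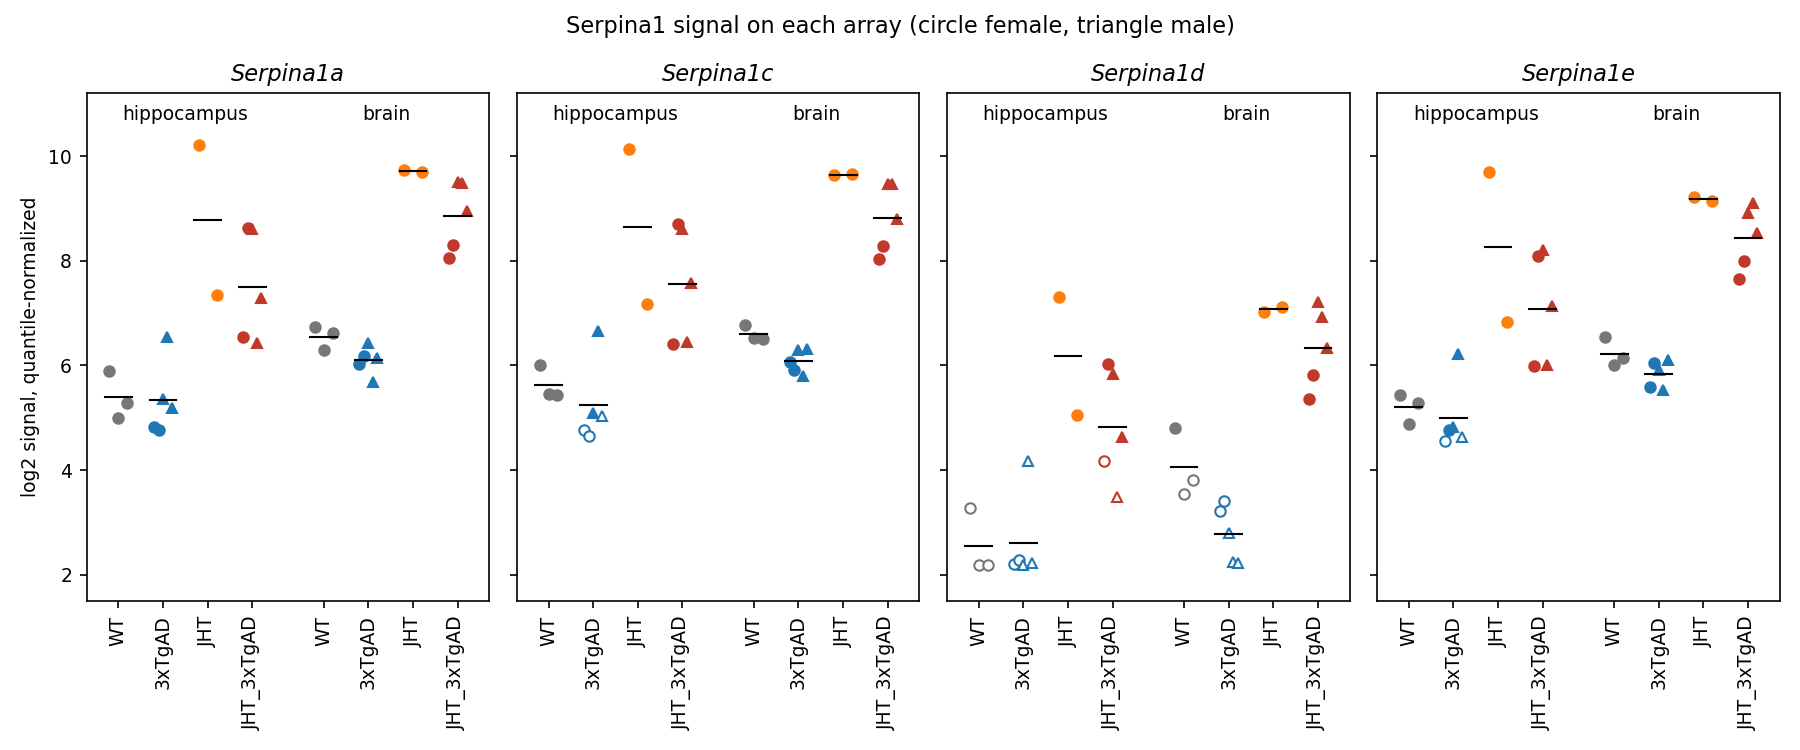
Log2 signal of the 4 measured Serpina1 genes on each of the 30 arrays, by tissue and genotype; circles are females, triangles males, open symbols arrays on which the probe was not well above background, and horizontal lines group means. In the brain, all B-cell-deficient mice (orange and red) sit above all others, whereas in the hippocampus 1 3xTgAD mouse reaches the range of the JHT_3xTgAD mice.

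The hippocampus of the same mice was not used to choose the members and could be tested, although it shares the animals with the brain arrays. Serpina1a was at 4.83, 4.77, 5.37, 6.54 and 5.18 in the 3xTgAD hippocampi (mice 1 to 5). In JHT_3xTgAD it was at 6.55 and 8.64 in the females and at 8.62, 6.43 and 7.28 in the males. WT hippocampi were at 5.90, 4.99 and 5.29, and the JHT pair at 10.22 and 7.36. Mouse 8 lay below the highest 3xTgAD value and mouse 6 level with it, and the other 3 JHT_3xTgAD values lay above it. That highest value was from mouse 4, 1 of the arrays rich in choroid plexus markers.

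The hippocampal differences were above 2 log2 units for Serpina1a, Serpina1c and Serpina1e, and 0 of 4 members passed the test. In JHT_3xTgAD against 3xTgAD, the log2 change was 2.27 (standard error 0.64) for Serpina1a, 2.40 (0.67) for Serpina1c and 2.14 (0.65) for Serpina1e. With Benjamini-Hochberg adjustment over all genes in limma, the members' adjusted p-values ran from 0.166 to 0.21. Over all genes, 1.02% passed an adjusted p of 0.05 in this comparison. All 4 members had an unadjusted p under 0.05 (0.00453 to 0.00747), as 5.48% of all genes did in the upward direction. With normexp correction of the median signals the median change over the members was 1.18, against 2.30 as processed here. For Serpina1d, whose p-values rest on signals near background, well above it in 3 of 5 JHT_3xTgAD and 0 of 5 3xTgAD hippocampi, the measured means of 4.83 and 2.61 allow only the bound of at least 1.33-fold. The groups overlapped for all 4 members, whereas 1.46% of all genes lay wholly higher in JHT_3xTgAD. Likewise 0 of 4 members, and 0.112% of all genes, were higher in every B-cell-deficient than in every B-cell-sufficient hippocampus.

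In JHT against WT the hippocampal changes were 3.40 (0.91) for Serpina1a, 3.02 (0.95) for Serpina1c and 3.06 (0.91) for Serpina1e. Here too 0 of 4 passed (limma, adjusted p 0.396 to 0.527), against 0.0926% of all genes, and 4 of 4 had an unadjusted p under 0.05, as did 4.31% of all genes in the upward direction. Both JHT hippocampi lay above all 3 WT ones for 4 of 4 members, as they did for 13% of all genes. The JHT pair differed greatly, by 10.22 against 7.36 for Serpina1a, and without mouse 13 the median change over the members was 1.79 in place of 3.23. With normexp correction of the median signals it was 1.88. Serpina1d was well above background in 2 of 2 JHT and 0 of 3 WT hippocampi (means 6.18 and 2.55, at least 3.22-fold). Both JHT hippocampi were among those rich in choroid plexus markers and no WT one was, so that the genotype and the amount of these markers cannot be told apart in this comparison. With the choroid plexus mean as a covariate the median change was 1.08, with 0 of 4 at an unadjusted p under 0.05, against 3.29% of all genes in the upward direction.

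Whether the members passed in JHT_3xTgAD against 3xTgAD turned on the fit. The arrays of this comparison lay on 2 slides, the first with 5 3xTgAD and 3 JHT_3xTgAD hippocampi and the second with the other 2 JHT_3xTgAD hippocampi. Those on the second were males, mice 8 and 9, and mouse 0 was the male of their group on the first. No other hippocampal group lay on both slides. A slide term thus rests on mouse 0 against mice 8 and 9 and cannot part slide from mouse. The array of mouse 0 had 432 outlier spots, the other hippocampal arrays 104 to 150. With the slide as a block, 4 of 4 members passed (limma, adjusted p 0.0298 to 0.047), where 11.3% of all genes did. Within the first slide the median change was 2.89 and 0 of 4 passed (limma, adjusted p 0.0528 to 0.0745), where 9.15% of all genes did. With all 30 arrays in 1 fit and the mouse as a block, 4 of 4 passed in JHT_3xTgAD against 3xTgAD (limma, adjusted p 0.0101 to 0.0175) and 2 of 4 in JHT against WT (0.0314 to 0.073), where 3.03% and 0.343% of all genes did. Without the block the counts were also 4 and 2, where 2.99% and 0.36% of all genes passed. The 30-array fits take part of their spread from the brain arrays, on which the members were chosen, so that these counts are given only as a description.

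Set in order, the Serpina1a means with their SDs were 5.34 ± 0.71 in 3xTgAD hippocampus (n = 5), 5.39 ± 0.47 in WT hippocampus (n = 3), 6.10 ± 0.28 in 3xTgAD brain (n = 5), 6.55 ± 0.23 in WT brain (n = 3), 7.50 ± 1.08 in JHT_3xTgAD hippocampus (n = 5), 8.79 ± 2.03 in JHT hippocampus (n = 2), 8.86 ± 0.67 in JHT_3xTgAD brain (n = 5) and 9.72 ± 0.04 in JHT brain (n = 2). The steps from 3xTgAD to WT hippocampus, from WT brain to JHT_3xTgAD hippocampus, from there to JHT hippocampus and on to JHT_3xTgAD brain were each smaller than the larger SD of the pair, so these neighbours did not differ beyond their spread. The first of these holds for both sexes together, since the 2 3xTgAD females alone were at 4.80 ± 0.04 in the hippocampus, farther below WT females than the larger SD. Steps between the tissues are also steps between slides, but for the brain of mouse 0. Levels of different probes are not compared, since each binds its target with its own strength.

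The brain and the hippocampus of each mouse, paired by the number in their titles, were set side by side. Serpina1a was higher in the brain than in the hippocampus in 12 of 15 mice, by a median of 1.20 over all mice, and the largest gap, 3.05, was in mouse 8. But for the brain of mouse 0, brain and hippocampal arrays lay on different slides, so that tissue and slide cannot be told apart. The exceptions were mice 4, 7 and 13, in which the hippocampus exceeded the brain by 0.86, 0.33 and 0.48. The same 3 mice were the exceptions for Serpina1c, Serpina1d and Serpina1e. Their hippocampal arrays held 3 of the 4 high choroid plexus means, the remaining one being that of mouse 14, whose brain was higher by 2.34. Within groups, the deviation of a mouse from its group mean in one tissue had a correlation of 0.06 with that in the other for Serpina1a, and from -0.06 to 0.27 for the other 3 members (15 mice).

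**Figure D2:**
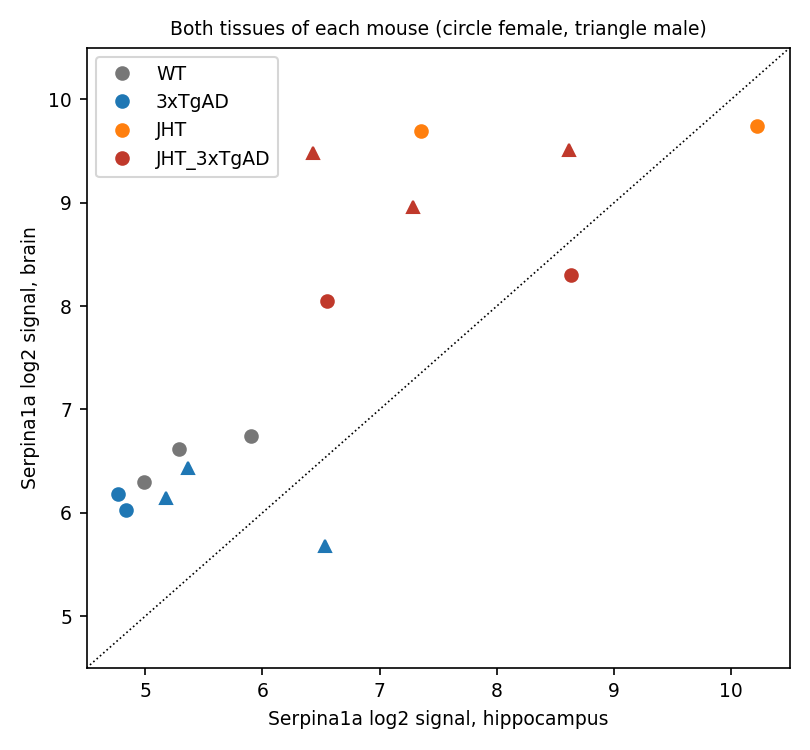
Serpina1a log2 signal in the brain (vertical axis) against the hippocampus (horizontal axis) of each of the 15 mice, by genotype; circles are females, triangles males, and the dotted line marks equal signal. The 3 points below the line are mice 4, 7 and 13, and mouse 8 lies farthest above it.

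The members moved almost as 1 signal. Over the 30 arrays, the lowest correlation among Serpina1a, Serpina1c and Serpina1e was 0.995, and the difference between Serpina1a and Serpina1c stayed between -0.46 and 0.28 on every array. Over all 7 probes the lowest correlation was 0.865, with the dim probes at the lower end. These probes are for near-identical transcripts, and their sequences were not used here, so the copies cannot be told apart with them.

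For all 7 probes the group means were higher in JHT_3xTgAD than in 3xTgAD in both tissues. The second probe of Serpina1d was, however, well above background in no hippocampus of these 2 genotypes. The second probe of Serpina1e, well above background on 30 of 30 arrays, showed smaller differences than the first, 1.19 against 2.51 in the brain and 0.96 against 2.14 in the hippocampus for JHT_3xTgAD against 3xTgAD. The second probe of Serpina1a reached that call on 7 arrays and the second probe of Serpina1d on 5, and neither did so on any 3xTgAD array, so that no size is given for them. The first probe of Serpina1d did not reach it on any 3xTgAD array either, and its difference is given only as a bound. With the mean of a gene's probes in place of the brightest, 0 of 4 members passed in the hippocampus, as before.

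**Figure D3:**
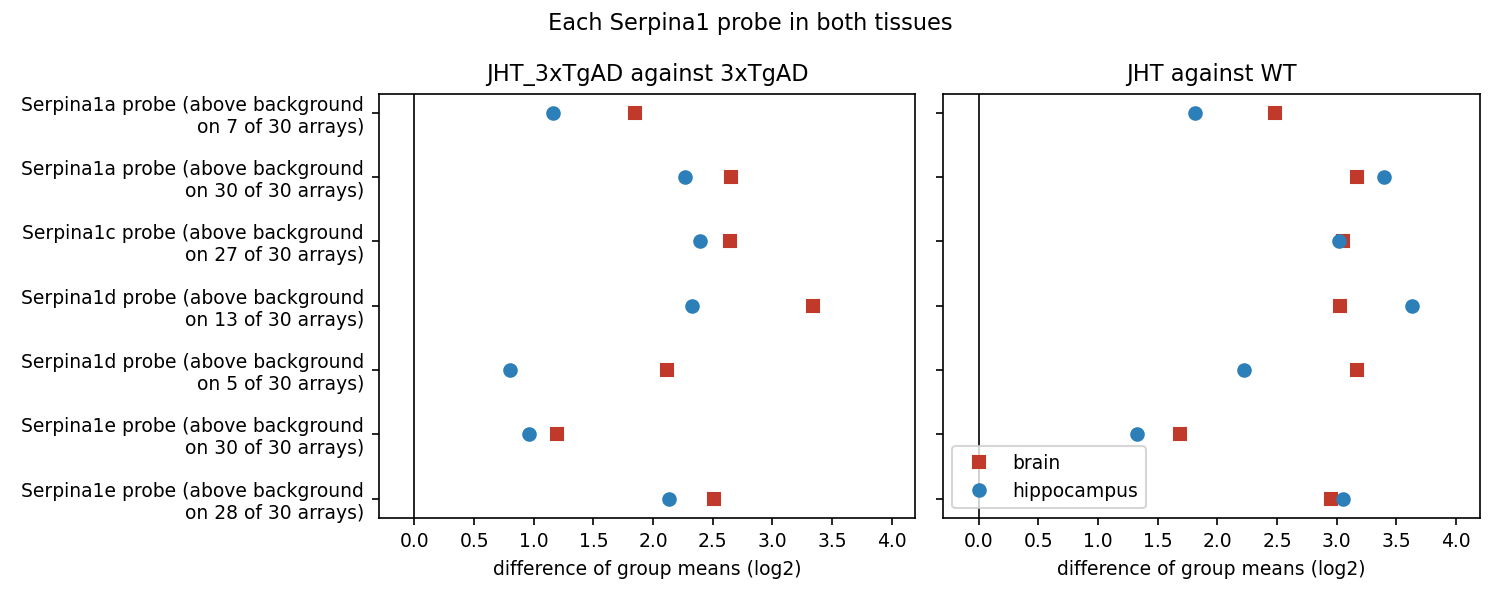
Difference of group means (log2) of each of the 7 Serpina1 probes in brain (squares) and hippocampus (circles), for JHT_3xTgAD against 3xTgAD (left) and JHT against WT (right). The second probes of Serpina1a and Serpina1d were above background on 7 and 5 of the 30 arrays and their points have no reliable size. The points of the first Serpina1d probe, above background on 13 of the 30 arrays and on no 3xTgAD array, have no reliable size either. Of the 2 probes above background on all 30 arrays the Serpina1e probe lies nearer to 0.

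The differences were also read by sex and by transgene. In the brain, JHT_3xTgAD females exceeded 3xTgAD females by 2.02 to 2.17 and males by 3.00 to 3.23 for Serpina1a, Serpina1c and Serpina1e. In the hippocampus the changes were 2.39 to 2.84 in females and 1.75 to 1.95 in males for these 3 genes. For Serpina1d, not well above background in any 3xTgAD mouse, no difference is given here. The difference of the hippocampal changes between the sexes, 0.50 to 1.04 for the same 3 genes (standard errors 1.28 to 1.35), passed for 0 of 4 members (limma, adjusted p 0.677 to 0.867), where 0.0245% of all genes passed, and 0 of 4 had an unadjusted p under 0.05, as 21.2% of all genes did. The median over the 4 members turned from 0.96 to -0.13 without mouse 7, to -0.16 with the slide as a block, to -0.52 and -1.33 with the choroid plexus and meningeal fibroblast means as covariates, and to -0.65 without the 4 arrays high in choroid plexus markers, so that no order of the sexes is read from it. The change with transgenes minus that without, in females, was -0.67 to -0.18 for the 3 genes (standard errors 1.34 to 1.41; limma, adjusted p of 0.896 or more), with 0 of 4 passing where 0.131% of all genes passed. At an unadjusted p under 0.05 the count was 0 of 4, against 13.5% of all genes. The median over the 4 members was turned by leaving out mouse 6 (0.41) or mouse 13 (0.79), and by the choroid plexus mean as a covariate (0.95). In 3xTgAD against WT hippocampi, the differences of Serpina1a, Serpina1c and Serpina1e were -0.92 to -0.55, and Serpina1d stayed near background in both groups. Of the 4, 0 passed, where 0.746% of all genes passed, and 0 of 4 had an unadjusted p under 0.05, as 12% of all genes did. These groups lay on different slides, so that genotype and slide cannot be told apart here. With the slide as a block the median over the members was -2.27 in place of -0.57. That slide term rests on the JHT_3xTgAD males, mouse 0 against mice 8 and 9, so the shift is not read as a correction.

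The genes on either side of the Serpina1 cluster did not pass. Of the 20 measured genes nearest to it in gene order, 10 on each side, 0 passed in either comparison and either tissue (limma), where 1.02% of genes passed in the hippocampus and 2.64% in the brain for JHT_3xTgAD against 3xTgAD, and 0.0926% and 0.161% for JHT against WT. Serpina1f, a related serpin gene next to the cluster on one side, had differences of -0.23 in brain and 0.13 in hippocampus in JHT_3xTgAD against 3xTgAD. For Serpina11, the next measured gene on the other side, these were 0.24 and -0.09. Over the 20 neighbours the median change was 0.05 in the brain and 0.13 in the hippocampus, and 13 of them were well above background on at least 15 of 30 arrays.

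Farther along the same chromosome, Serpina3n and Serpina3i rose. Serpina3n encodes a counterpart of alpha-1-antichymotrypsin, which astrocytes make in inflamed brain. It was at 8.40 to 8.49 in 3xTgAD and 10.55 to 12.44 in JHT_3xTgAD brains, and at 10.10 to 10.56 and 12.37 to 13.62 in the hippocampi of these genotypes, with no overlap in either tissue. Its changes in JHT_3xTgAD against 3xTgAD were 2.86 (standard error 0.26, limma adjusted p = 0.000205) in the brain and 2.67 (standard error 0.23, adjusted p = 0.000302) in the hippocampus. In JHT against WT they were 2.93 and 3.00 (limma, adjusted p = 0.0085 and 0.00574). Serpina3i, another serpin gene of that group, was at 8.27 to 9.75 in JHT_3xTgAD and 4.15 to 5.27 in 3xTgAD hippocampi, a change of 4.46 (standard error 0.36, limma adjusted p = 0.000205), or of 2.76 with background correction by normexp. In the brain it was at 6.46 to 8.26 in JHT_3xTgAD, and the probe was not well above background in any 3xTgAD or WT brain. Of the 10 measured genes of the Serpina3 group, 2 rose in the hippocampus and 3 in the brain in that comparison, the third being Serpina3m, well above background on 1 array. The median change of the group was 0.26 in the hippocampus and 0.30 in the brain, beside 0.01 and 0.00 over all genes. Of the 8 measured clade A serpins outside that group and the members, 0 passed in either tissue.

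**Figure D4:**
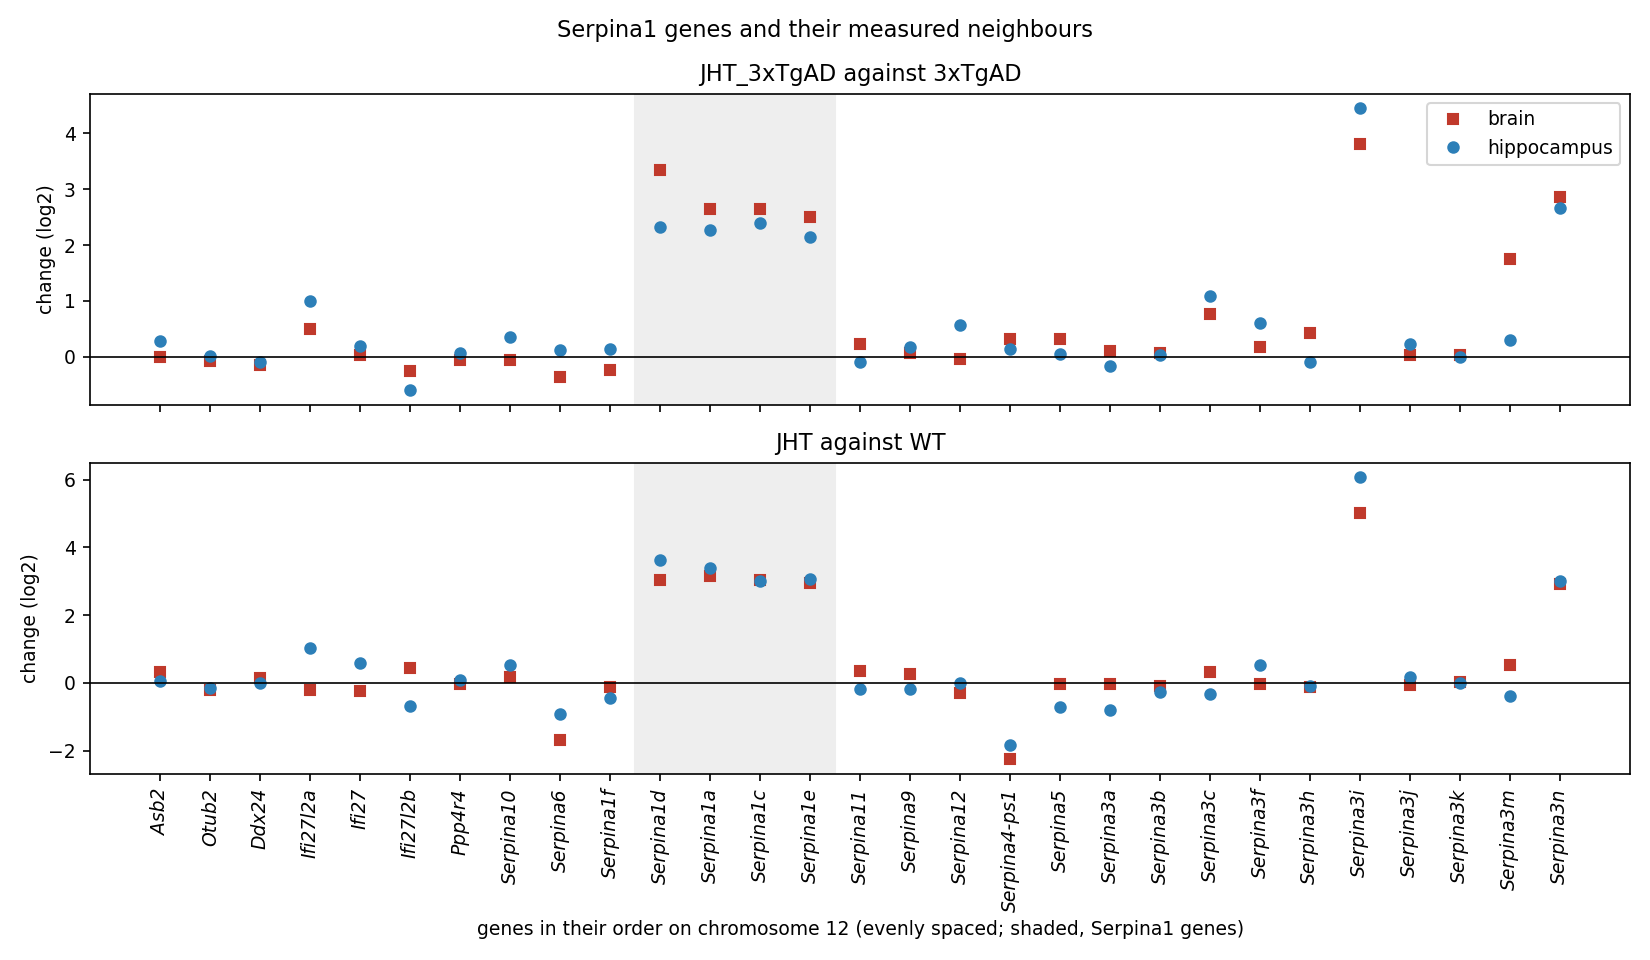
Log2 change of the 4 measured Serpina1 genes (shaded) and of measured genes around them in their order on chromosome 12, evenly spaced, in brain (squares) and hippocampus (circles). The Serpina1 genes stand above their nearest neighbours on both sides, and Serpina3i and Serpina3n stand out farther along.

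The deleted Igh segments lie on chromosome 12 as well. In the gene order of GRCm38, 338 annotated genes lie between the cluster and Igh, of which 122 were measured. In JHT against WT, 1.19% of the measured genes of chromosome 12 other than the members passed in the hippocampus and 1.04% in the brain. On the other chromosomes these were 0.0532% and 0.0725%. Serpina3n and Serpina3i are counted in the chromosome 12 shares. In JHT_3xTgAD against 3xTgAD the shares were 1.19% and 2.68% on chromosome 12, beside 1.17% and 2.73% elsewhere. Of the 122 genes between the cluster and Igh, 3 (2.46%) passed in the hippocampus and 2 (1.64%) in the brain in JHT against WT. In JHT_3xTgAD against 3xTgAD, 2 (1.64%) and 4 (3.28%) of them passed. Alleles that travel with the deleted locus, or that differ between the mouse lines elsewhere, and the absence of B cells cannot be told apart in this design.

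Among the enzymes that alpha-1-antitrypsin and related serpins inhibit, of 5 measured (Elane, Prtn3, Ctsg, St14 and Klkb1), 0 passed in either tissue and comparison, and their median change in JHT_3xTgAD against 3xTgAD was 0.03 in the hippocampus and 0.15 in the brain. In JHT against WT the median was 0.32 in the hippocampus and 0.14 in the brain. Ctsg, the neutrophil and mast cell protease cathepsin G, was at 7.35 to 8.45 in JHT and 3.68 to 4.51 in WT hippocampi (limma, adjusted p = 0.265), being well above background in 2 of 2 and 0 of 3. Elane, neutrophil elastase and the main target, was at 10.03 to 11.70 in 3xTgAD and 10.23 to 11.92 in JHT_3xTgAD hippocampi.

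Of 13 genes for folding, export and disposal of antitrypsin in the endoplasmic reticulum, 0 passed in either tissue. Lman1, its cargo receptor, showed a difference of 0.10 in the hippocampal comparison and of -0.01 in that of the brain. The median of the 13 was 0.05 in the hippocampus and -0.01 in the brain.

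Of 12 genes upstream of antitrypsin, 0 passed in the hippocampus of JHT_3xTgAD against 3xTgAD and 1 in the brain. That gene was Il6, encoding interleukin-6, which was called lower (limma, adjusted p = 0.0179) but was well above background on only 5 of 15 brain arrays, so that no size is given. For Stat3 the hippocampal difference was 0.18 and that of the brain -0.11 (limma, adjusted p = 0.618 and 0.628). In 3xTgAD against WT hippocampi 1 of the 12 was called lower, Osm (oncostatin M), whose probe was above background on 0 of 30 arrays.

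Of 13 acute-phase proteins, Cp alone passed in the hippocampus of JHT_3xTgAD against 3xTgAD. Cp, the copper-carrying ceruloplasmin, rose by 1.56 (standard error 0.29, limma adjusted p = 0.0336). For Lcn2, lipocalin 2, the hippocampal difference was 2.57 and that of the brain 2.09, neither of which passed (limma, adjusted p = 0.0651 and 0.179). For Hp, haptoglobin, these were 1.08 and 1.24 (limma, adjusted p = 0.514 and 0.278). The median of the list was 0.56 in the hippocampus and 0.28 in the brain. In the brain 0 of 13 passed in that comparison.

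Markers of other cells were set beside the members. Of 11 hepatocyte markers, Apoa2, Apoh and Apoc3 were well above background on 30 of 30 arrays, 6 on 1 to 14 arrays, and the defining genes Alb and Apoa1 on none. The mean of all 11 was 4.16 to 4.61 in B-cell-deficient and 4.27 to 4.96 in B-cell-sufficient brains. Over the 15 hippocampal arrays, the mean of Serpina1a, Serpina1c and Serpina1e had a correlation of 0.81 with the mean of 5 meningeal fibroblast markers (Dcn, Col1a1, Col1a2, Lum and Igf2), 0.67 with 6 endothelium markers, 0.58 with the choroid plexus markers, 0.55 with 10 neutrophil markers and 0.18 with 8 microglia markers. Over the 15 brain arrays these were 0.28, 0.72, 0.03, 0.73 and 0.59. Each correlation runs over arrays of 4 genotypes and describes these arrays only.

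These lists moved with the genotypes to different degrees. The meningeal fibroblast mean was 9.16 to 11.02 in B-cell-deficient and 8.78 to 10.40 in B-cell-sufficient hippocampi, and 9.69 to 10.41 against 9.74 to 10.13 in the brain. The neutrophil mean was 6.88 to 10.84 against 6.21 to 6.97 in the hippocampus and 7.51 to 11.32 against 6.29 to 9.18 in the brain. For each of the lists of choroid plexus, meningeal fibroblast and neutrophil markers, 0 genes passed in JHT_3xTgAD against 3xTgAD in either tissue. Of the 6 endothelium markers, Cldn5, a tight junction protein, rose in both tissues, by 1.16 in hippocampus and by 1.05 in brain (limma, adjusted p = 0.00812 and 0.0125). In 3xTgAD against WT hippocampi it fell by 1.22 (limma, adjusted p = 0.0463). The mean of the 6 was 10.60 to 10.92 in 3xTgAD, 11.13 to 11.53 in JHT_3xTgAD, 11.01 to 11.43 in WT and 11.42 to 11.71 in JHT hippocampi.

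With 1 marker mean as a covariate, the hippocampal values moved more than those of the brain. The median hippocampal change of the members in JHT_3xTgAD against 3xTgAD was 2.43 with the choroid plexus mean, where 2 of 4 members passed (limma, adjusted p 0.0465 to 0.0687) and 1.18% of all genes did, and 0.71 with the meningeal fibroblast mean, where 0 of 4 passed, against 0.248% of all genes, and 0 of 4 had an unadjusted p under 0.05, against 4.01% of all genes in the upward direction. It was 2.56 with the neutrophil mean and 1.79 with the endothelium mean, with 0 of 4 passing in each, where 0.368% and 0.0436% of all genes did. The brain difference had a median of 2.65 without a covariate and of 2.63, 2.52, 2.52 and 2.27 with these 4 means. Without the 4 hippocampal arrays high in choroid plexus markers the median hippocampal change was 2.02, with 0 of 4 passing, where 0.951% of all genes did, and 4 of 4 at an unadjusted p under 0.05, as were 5.32% of all genes in the upward direction. These covariates were chosen after the values were seen, and beyond them the part of these cells in the signal was not tested.

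**Figure D5:**
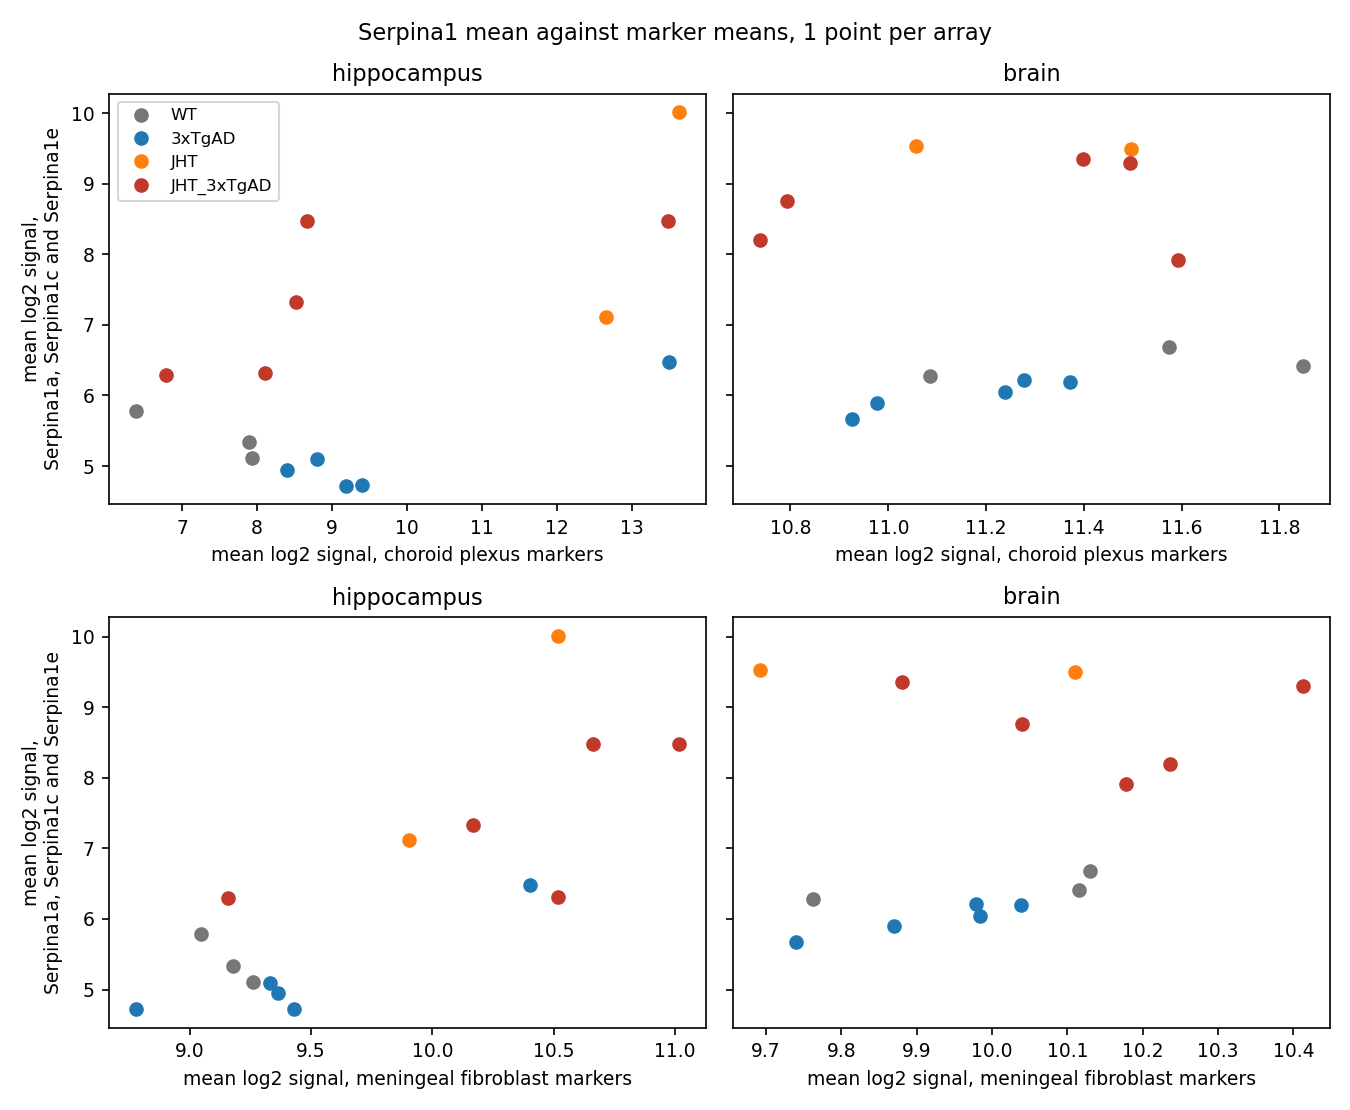
Mean log2 signal of Serpina1a, Serpina1c and Serpina1e (vertical axes) against the mean of the choroid plexus markers (top) and of the meningeal fibroblast markers (bottom), 1 point per array, in hippocampus (left) and brain (right). In the hippocampus 4 arrays lie far to the right for choroid plexus markers, and in the brain 3 of the 5 JHT_3xTgAD arrays lie to the right of every B-cell-sufficient one for meningeal markers.

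Among 23318 genes and transcripts well above background on at least 15 arrays, those most like the members were ranked by the smaller of the correlations with their mean over 15 hippocampal and 15 brain arrays. First was the transcript XR_871435, which has no symbol here, with 0.98 in the hippocampus and 0.99 in the brain. It was at 5.71 to 6.21 in 3xTgAD and 7.82 to 9.28 in JHT_3xTgAD brains. Its position was not looked up, and whether its probe also binds Serpina1 transcripts was not tested. Next came Serpina3n (0.81 and 0.98) and Serpina3i (0.80 and 0.94), then Flna (filamin A), Tgfbi (an extracellular matrix protein), Krtap11-1 (a keratin-associated protein), the transcript NM_008710, Adh1 (an alcohol dehydrogenase), Inmt (an indole methyltransferase) and Serhl, with smaller correlations of 0.77 to 0.80.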

How the data were processed

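Total RNA of each perfused tissue was labelled with Cy3 and hybridised to 1 Agilent array. The authors deposited scanner output of Feature Extraction 12.0.3.1 with processed intensity (background subtracted, not normalized between arrays; annotation build mm9), and a table of scores, which matched the Z score of log10 intensity within an array (column medians -0.31 to -0.2). The 75th percentile of intensity was 394 to 698 on hippocampal and 709 to 1384 on brain arrays, and 52.6% to 62.5% of probes were well above background. Signal over background limits dim probes, and the number of mice limits precision.

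From the deposited intensity, 3671 control spots of 62976 and outlier spots were left out, and log2 values were quantile-normalized over 30 arrays, with the brightest probe standing for a gene; quantile normalization and this choice of probe follow the study's methods, which name raw intensity as their input. limma 3.58.1 (R 4.3.3, statmod 1.5.0) was fitted per tissue (15 arrays) with 6 groups by genotype and sex, with Benjamini-Hochberg adjustment over 36717 genes and transcripts, two-sided, at 0.05. The comparison of JHT_3xTgAD with 3xTgAD is the mean of the changes in females and in males. 28331 probes matched a symbol. The fits were tested on simulated data. "At least" marks a bound where no array of a group had the probe well above background, set against the lowest signal well above background on each array.

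The number in the sample titles was taken to pair the tissues of an animal, which is an inference. Over 19491 genes the paired deviations from the group means had a median correlation of 0.105 (-0.178 to 0.24), with 8 of 15 pairs above 0.1. Nothing says that the mice of a group came from separate litters. The members, gene lists and tests were chosen with earlier results of these data known. Genes named are the members, the 10 nearest measured genes on each side, called or best known genes of the lists reported, and the 10 genes most like the members. Serpina3m was named after its values were seen. Alternatives covered scaling, background, filters, probes, slides, pairing, samples and the deposited scores. A few items of the lists and of the mouse lines are not reported here.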

Additional observations from a re-analysis of the deposited data

Results flagged for a closer look

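Within groups of 5 mice, 16 sets of values were examined for 1 array far from the rest (Dixon's test), and 3 were past the 95% limit, all from the 3xTgAD hippocampus of mouse 4. There Serpina1c was at 6.67 with the next value at 5.09, Serpina1d at 4.17 with the next at 2.28, and Serpina1e at 6.22 with the next at 4.83. Serpina1d was not well above background in any of these 5 hippocampi. Chance flags about 1 in 20 such sets, and the 4 genes are nearly 1 signal, so these are not separate events. The same array had a choroid plexus marker mean of 13.49, and the brain of mouse 4 had the lowest Serpina1a value of its group, 5.68. Without mouse 4 the median hippocampal change of the members in JHT_3xTgAD against 3xTgAD was 2.57 in place of 2.30, with 0 of 4 passing.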

How the results depend on the processing

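The count of members passing in the hippocampus was 0 of 4 in all 5 comparisons as first fitted. In JHT_3xTgAD against 3xTgAD it rose to 4 with the slide as a block, to 4 with all 30 arrays in 1 fit without the mouse (replicate) block and to 4 with that block, and to 2 with the choroid plexus mean as a covariate. In JHT against WT it rose to 2 in the 30-array fits both without and with the mouse block. These fits share brain arrays with the choice of members, so that their counts are descriptions. Leaving out 1 mouse gave 0 to 0 in every comparison, with a median change of 1.79 to 2.79 in JHT_3xTgAD against 3xTgAD and of 1.79 to 4.63 in JHT against WT. The sign of the median turned in the comparison between the sexes with the slide block (-0.16), without mouse 7 (-0.13) and with the choroid plexus (-0.52) or meningeal fibroblast (-1.33) mean, and without the 4 arrays high in choroid plexus markers (-0.65). The transgene comparison turned with the choroid plexus mean (0.95), and also without mouse 13 (0.79) or without mouse 6. In 3xTgAD against WT the slide block gave a median of -2.27 in place of -0.57. In each hippocampal fit with the slide block, the slide term rests on the JHT_3xTgAD males, mouse 0 against mice 8 and 9. Background correction by normexp on median signals gave medians of 1.18 in JHT_3xTgAD against 3xTgAD and 1.88 in JHT against WT hippocampi. The brain median of 2.65 moved to 1.68 with that correction and to 2.27 with the endothelium mean as a covariate, and ran from 2.55 to 2.75 without 1 mouse.

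Percentile scaling, quantile normalization within a tissue, the deposited scores, the filter on dim probes, probe means, a fit of the compared groups alone, an adjusted p of 0.1 and, for JHT and 3xTgAD against WT, the methods' t-test (the unpaired test that the study names for pairs of groups, with Benjamini-Hochberg adjustment added here) each left 0 of 4. The marker covariates, the arrays left out for choroid plexus markers, normexp on median signals and all brain alternatives were chosen after seeing the data. Normexp on mean signals could not be run without a mean signal column. JHT against WT could not be fitted without the arrays high in choroid plexus markers, which include both JHT hippocampi. The cause of these shifts was not tested. Signal over background limits Serpina1d most.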
